A study of Homo sapiens with 4 samples.

Results

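The nuclear-encoded subunits of the mitochondrial respiratory chain and ATP synthase were followed across 4 RNA-seq libraries of MDA-MB-468 mammospheres. Members were taken by symbol from the count tables: the NDUFA, NDUFB, NDUFC, NDUFS and NDUFV genes with a number, NDUFAB1, SDHA to SDHD, CYC1, and the UQCR, COX4I, COX5, COX6, COX7, COX8 and ATP5 genes, with 2 pseudogenes dropped. This gave 93 of 26475 symbols. Of these, 83 code for subunits of complexes I to V, namely 37 of complex I, 4 of complex II, 9 of complex III, 18 of complex IV and 15 of complex V. The others were 5 related proteins or copies and 5 readthrough or antisense transcripts. Symbols are written as the tables give them, so the ATP synthase genes keep their older ATP5 names.

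MDA-MB-468 is an established basal-like triple-negative breast cancer line, grown here as floating spheres. CTL, labelled wild type with no treatment, carried a control guide. CTL+dox was the same cells with doxycycline. The gRNA2 library, also labelled wild type with no treatment, carried a TCOF1 guide that had not been induced, and gRNA2+dox, labelled as the knockout of TCOF1, carried that guide with doxycycline to induce it. By the study's methods all cells held Cas9 and a doxycycline-inducible guide as sorted pools rather than clones, and several plates were combined for each condition. TCOF1 codes for treacle, a nucleolar protein with a known role in ribosomal RNA transcription. The study reported no fall in the ribosomal RNAs it measured in spheroids of this line after TCOF1 knockout. The comparison of interest asks what loss of TCOF1 does to spheres. There was 1 library for each condition and no replicate, so no comparison below has a test, and every interval covers counting error between a pair of libraries only. It does not cover differences between cultures.

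Library depth ran from 19960644 to 26322847 reads on genes. TCOF1 had 1019 reads in CTL and 754 with doxycycline, and 1318 in gRNA2 and 437 with doxycycline, so the target was lowest in the knockout library, and it was also lower in CTL+dox than in CTL (log2 ratio -0.59). The 8 epithelial markers listed for this basal-like line, which include KRT8, KRT18, EPCAM and CDH1, were all present, led by KRT17 and KRT5. Their summed level was 14834 to 16580 counts per 1000000 reads (CPM). ESR1 and PGR had at most 13 reads in any library, and ERBB2 had 270 to 387 reads (12.4 to 14.7 CPM). White blood cell markers summed to 156 to 180 CPM, nearly all from CD68, CSF1R and CD14, with PTPRC at 1 or 2 reads. Fibroblast markers summed to 19.1 to 25.6 CPM, mainly COL1A1. Reads with several equally good positions made up 4.85% of reads in CTL and 4.02% with doxycycline, and 4.57% in gRNA2 and 3.39% with doxycycline.

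The respiratory chain passes electrons from NADH (complex I) and succinate (complex II) through coenzyme Q, complex III and cytochrome c to complex IV, which reduces oxygen. Proton pumping along the way drives ATP synthase (complex V). Most subunits are coded in the nucleus, made on cytosolic ribosomes and imported, while a few catalytic subunits are coded in the mitochondrial genome and made on mitochondrial ribosomes, whose translation doxycycline is known to slow. Whether it did so in these cells was not measured.

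The respiratory chain was well covered. Of the 83 subunits, 77 reached 10 reads in at least 1 library and were compared, and 73 had at least 100 reads in each library. The 77 had a median of 1072 reads in CTL, against 369 for the 15204 genes compared. The 6 subunits below the limit were COX4I2, COX6A2, COX7A1, COX7B2 and COX8C, all tissue-restricted versions of complex IV subunits, and ATP5E. COX4I2 had 0 reads in every library, which allows a level of up to 0.114 to 0.148 CPM, and the others had at most 4 reads in any library. Among the 10 members that were not subunits, 6 reached the limit.

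Doxycycline-treated control spheres stood apart from the other 3 libraries. Levels below are CPM after TMM scaling, which sets the libraries to a common scale through the bulk of genes, and ratios are log2 ratios of these levels. Summed over the subunits, the level was 5540 CPM in CTL and 6199 with doxycycline, and 5353 in gRNA2 and 5600 with doxycycline. The sum was thus highest in CTL+dox and lowest in gRNA2. In bulk RNA, fewer cells with a transcript and less of it in each cell cannot be told apart. Counting error on these sums was small, with 95% Poisson intervals of 5508 to 5573, 6167 to 6232, 5325 to 5381 and 5568 to 5631 CPM in the same order.

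Ranked gene by gene, 63 of the 77 subunits (81.8%) had their highest level in CTL+dox, compared with 29.6% of all genes compared. The highest level was in gRNA2+dox for 7 subunits (24.8% of all genes), in gRNA2 for 6 (24.4%) and in CTL for 1 (21.2%). The lowest level fell in gRNA2 for 46 of the 77 (24.7% of all genes), in CTL for 16 (20.2%), in gRNA2+dox for 11 (25.7%) and in CTL+dox for 4 (29.3%). The order was thus shared by subunits of different complexes. With the 73 well-covered subunits alone, 62 were highest in CTL+dox (84.9%, against 31.0% of genes with as many reads). Lowest in gRNA2 were 44 (60.3%, against 25.8%). After centring on canonical transcript length and GC content, described below, more of the 77 were highest in CTL and in gRNA2, and fewer in CTL+dox.

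**Figure D1:**
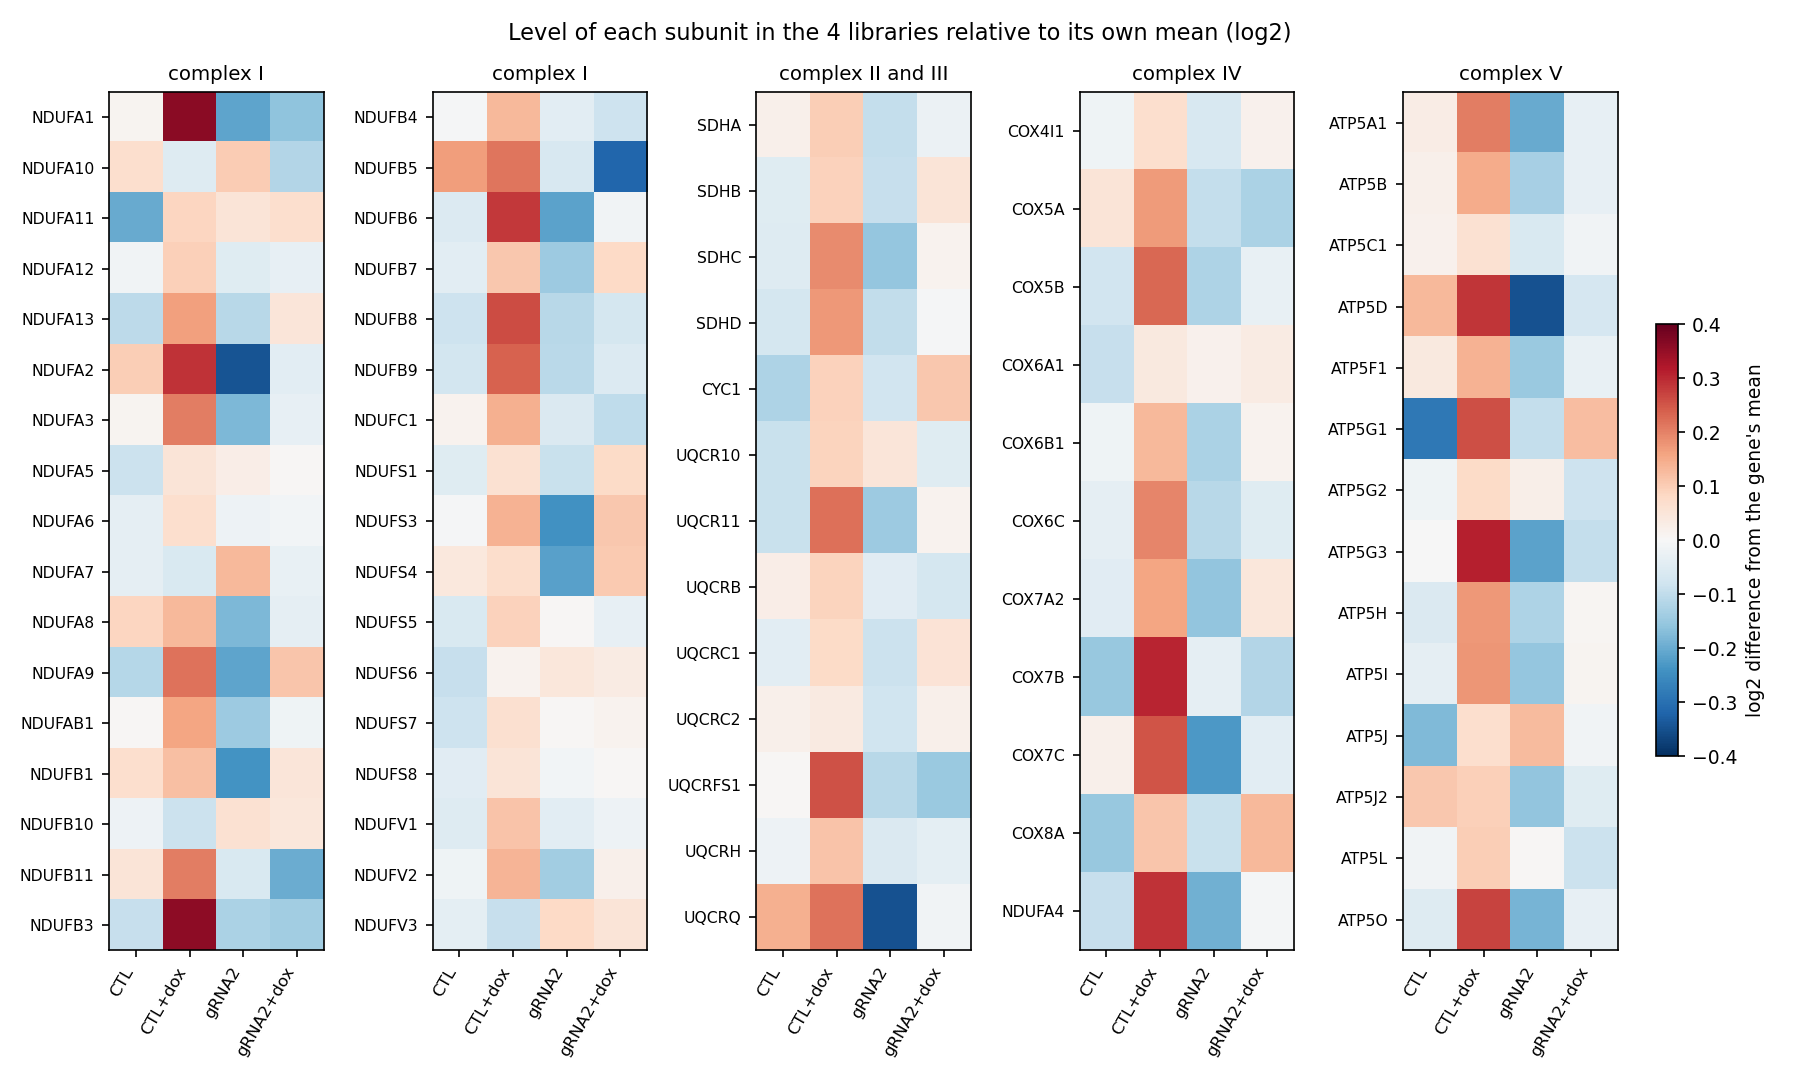
Heat map of subunits with at least 100 reads in each library, by complex (complex I in 2 panels, complexes II and III in 1), with 1 column for each library. Colour gives the log2 difference of the scaled level from the gene's own mean over the 4 libraries (red higher, blue lower, scale -0.4 to 0.4). The CTL+dox column is red for most genes, and the gRNA2 column is mostly blue.

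Differences were small for each gene. Between CTL+dox and CTL, the 77 subunits had a median log2 ratio of 0.15 (1.11-fold), with the middle 50% from 0.10 to 0.24, and 71 lay above CTL in CTL+dox, where 50.2% of all genes were. The limit for a larger difference was set at 25% higher or, the same fold, 20% lower. Past this limit, 10 were higher (13.0%, against 9.05% of all genes) and 0 were lower (11.0% of all genes). Genes with few reads scatter more, so the counts were repeated on the 73 well-covered subunits. There, 9 were higher past the limit (12.3%, against 2.48% of genes with as many reads) and 0 were lower (3.63%). Centring the ratios on genes of like length and GC content left 5 of the 77 higher past the limit, or 4 with canonical transcripts. The share of all genes past the limit after centring is not given here or below. Whether the centred counts exceed the background is therefore not known.

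Within the gRNA2 cells, gRNA2+dox was above gRNA2 by a median of 0.10 (1.07-fold), with the middle 50% from -0.01 to 0.17. Of the 77, 57 were higher, against 49.6% of all genes. Past the limit, 6 were higher (7.79%, against 9.28% of all genes) and 0 were lower (11.4%). Of the 73 well-covered subunits, 3 were higher past that limit (4.11%, against 3.36%) and 0 lower (3.16%). The number higher past the limit was thus near the background here. It was 3 of the 77 after centring on transcript length and GC content, with no centred share of all genes beside it.

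The knockout and control-guide spheres, both with doxycycline, differed the other way. The median of gRNA2+dox against CTL+dox was -0.14 (0.906-fold), with the middle 50% from -0.25 to -0.05, and 11 of 77 were higher, against 49.9% of all genes. Past the limit, 11 were lower (14.3%, against 15.0% of all genes) and 2 were higher (2.60%, against 12.8%). Of the 73 well-covered subunits, 10 were lower (13.7%, against 6.95%) and 0 higher (7.17%). With canonical centring, 7 of the 77 were lower past the limit, again with no centred share of all genes beside it. This comparison shares the CTL+dox library with the comparison of doxycycline in control cells and the gRNA2+dox library with the comparison within gRNA2 cells.

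Without doxycycline, gRNA2 was below CTL by a median of -0.07 (0.954-fold), with the middle 50% from -0.15 to 0.03. Of the 77, 23 were higher, against 49.2% of all genes. Past the limit, 4 were lower (5.19%, against 11.9%) and 1 was higher (1.30%, against 8.95%). Of the 73 well-covered subunits, 3 were lower (4.11%, against 4.10%) and 0 higher (2.65%). Neither library had doxycycline, so this pair compares the pools before induction. With 1 library from each pool, a difference between pools and a difference between cultures cannot be told apart.

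No member reached the cutoffs used in the study, a log2 ratio past 1 with a counting bound past 0.5. The count was 0 of 83 members in each of the 4 comparisons. Among all genes, 0.178% passed them between CTL+dox and CTL, 0.539% between gRNA2+dox and gRNA2, 1.43% between gRNA2+dox and CTL+dox and 0.513% between gRNA2 and CTL.

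**Figure D2:**
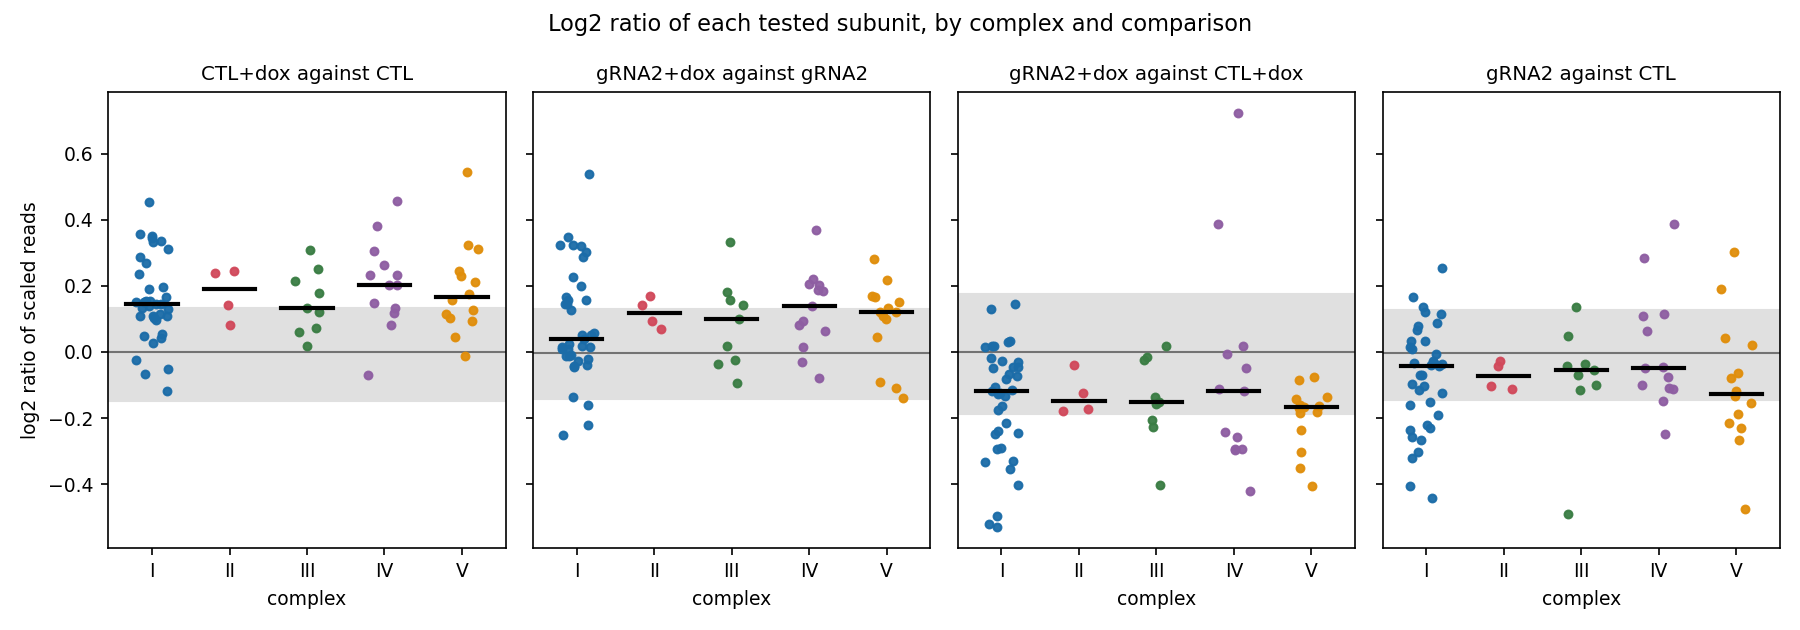
Log2 ratio of scaled reads for each of the 77 subunits (points), by complex (x axis) and comparison (panels), with black bars for the median of each complex. The grey band is the middle 50% of the 15204 genes compared and the grey line their median. The bars lie above the line in both doxycycline panels and below it in the other panels.

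The promoters of the genes were searched for 3 short motifs, because the subunits moved together and factors that bind these motifs are known regulators of respiratory genes. The windows are the 250 bases before each RefSeq start on GRCh38.p14, and the motifs are GCGCANGCG for NRF1, CCGGAAG for ETS factors such as GABPA, and AAGATGGCG for YY1, each on both strands and with overlapping matches counted. Windows were found for 63 of the 77 subunits. The NRF1 letters were present for 20 (31.7%, against 13.9% of 11834 genes compared that had a window), the ETS letters for 17 (27.0%, against 17.4%) and the YY1 letters for 1 (1.59%, against 1.32%). The NRF1 share depends on the letters chosen: with 1 more letter, C, at its end, it was 13 genes (20.6%, against 11.0%). The windows had a median GC content of 60.4% for the subunits and 64.0% for all. These matches describe the letters only and are not evidence of binding. The windows shown are those of 2 complex II genes and UQCR11, which hold NRF1 letters, of NDUFS3 and ATP5J, which had the largest ratios of gRNA2+dox to gRNA2 and of gRNA2 to CTL among the well-covered subunits, and of COX7B and ATP5G1, the subunits with the largest ratios of CTL+dox to CTL. ATP5J has a further RefSeq start, whose window (chr21:25735055-25735304, not shown) holds 1 NRF1 match, so it counts among the genes with NRF1 letters. Capitals mark the motif letters.
SDHA, chr5:218070-218319, forward strand, 4 NRF1 matches: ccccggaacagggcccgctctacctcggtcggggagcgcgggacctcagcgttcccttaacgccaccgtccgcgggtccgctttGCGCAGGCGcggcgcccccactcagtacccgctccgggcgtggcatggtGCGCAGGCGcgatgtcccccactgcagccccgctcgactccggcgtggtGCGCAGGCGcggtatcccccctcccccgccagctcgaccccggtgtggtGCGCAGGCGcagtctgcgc
SDHD, chr11:112086623-112086872, forward strand, 2 NRF1 matches and 1 ETS match: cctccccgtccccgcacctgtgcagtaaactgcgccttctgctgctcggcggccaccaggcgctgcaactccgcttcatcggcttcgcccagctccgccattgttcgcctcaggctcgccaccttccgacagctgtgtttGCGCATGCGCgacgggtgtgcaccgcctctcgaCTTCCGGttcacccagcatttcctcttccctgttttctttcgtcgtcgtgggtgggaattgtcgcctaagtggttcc
UQCR11, chr19:1605463-1605712, reverse strand, 2 NRF1 and 2 ETS matches: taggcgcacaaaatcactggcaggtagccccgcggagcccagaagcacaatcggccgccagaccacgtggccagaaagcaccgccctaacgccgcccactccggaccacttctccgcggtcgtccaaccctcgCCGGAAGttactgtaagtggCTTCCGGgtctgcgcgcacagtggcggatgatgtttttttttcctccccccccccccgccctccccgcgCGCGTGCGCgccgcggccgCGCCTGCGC
NDUFS3, chr11:47578824-47579073, forward strand, 2 ETS matches: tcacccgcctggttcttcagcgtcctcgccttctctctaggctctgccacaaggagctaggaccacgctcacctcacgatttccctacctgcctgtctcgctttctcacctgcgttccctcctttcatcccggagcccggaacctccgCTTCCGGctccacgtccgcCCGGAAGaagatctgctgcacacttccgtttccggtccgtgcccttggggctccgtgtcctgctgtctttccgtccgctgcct
ATP5J, chr21:25734905-25735154, reverse strand, 2 ETS matches and 1 YY1 match in the window shown: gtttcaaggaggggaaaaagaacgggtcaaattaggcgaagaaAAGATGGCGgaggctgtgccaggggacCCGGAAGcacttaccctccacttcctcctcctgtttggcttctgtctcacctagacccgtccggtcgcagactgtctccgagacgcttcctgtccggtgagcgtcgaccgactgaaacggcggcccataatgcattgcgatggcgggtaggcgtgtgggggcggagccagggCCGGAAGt
COX7B, chrX:77899218-77899467, forward strand, no match: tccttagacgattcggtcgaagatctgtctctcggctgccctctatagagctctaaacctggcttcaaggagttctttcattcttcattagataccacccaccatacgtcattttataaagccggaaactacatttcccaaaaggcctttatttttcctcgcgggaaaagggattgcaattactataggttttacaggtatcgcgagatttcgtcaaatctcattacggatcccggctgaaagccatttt
ATP5G1, chr17:48892537-48892786, forward strand, no match: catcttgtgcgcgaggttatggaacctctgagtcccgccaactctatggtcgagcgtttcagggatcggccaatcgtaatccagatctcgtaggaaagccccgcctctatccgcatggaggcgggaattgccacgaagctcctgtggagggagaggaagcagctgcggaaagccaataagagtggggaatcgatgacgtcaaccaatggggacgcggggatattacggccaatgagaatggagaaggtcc

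The medians of genes with and without the letters had the same direction. Between CTL+dox and CTL, the median log2 ratio was 0.15 for the 20 genes with NRF1 letters, 0.18 for the 17 with ETS letters and 0.12 for the 30 with none of the 3. For gRNA2+dox against CTL+dox the medians were -0.13, -0.12 and -0.13 in the same order. Within gRNA2 cells they were 0.03, 0.14 and 0.06. For the 13 genes with the longer NRF1 letters they were 0.21, -0.17 and 0.09 in these comparisons. These groups overlap where a gene has more than 1 motif, and COX7B and ATP5G1 had none.

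Complex I oxidises NADH. Its 7 nuclear core subunits hold the flavin and the iron-sulphur clusters, and the accessory subunits form a shell around them and the membrane arm. All 37 genes were compared. The median log2 ratio of complex I was 0.15 for CTL+dox against CTL (33 of 37 higher), 0.04 for gRNA2+dox against gRNA2 (25 higher), -0.12 for gRNA2+dox against CTL+dox (7 higher) and -0.04 for gRNA2 against CTL (12 higher). Its highest level was in CTL+dox for 29 of the 37 genes.

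All 7 core subunits lay above CTL in CTL+dox. NDUFV1, which binds NADH and FMN, was at 66.0 CPM in CTL and 74.0 with doxycycline, and 66.5 in gRNA2 and 67.5 with doxycycline. NDUFV2, its iron-sulphur partner, was at 103, 114, 94.3 and 105 CPM in the same order. Both had their highest level in CTL+dox, with ratios of 0.16 (0.06 to 0.27) and 0.15 (0.07 to 0.24) over CTL. NDUFS1, the largest core subunit, was at 63.4, 68.4, 61.6 and 69.2 CPM. Unlike them, it was level in the knockout library and CTL+dox (0.02, -0.09 to 0.12).

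NDUFS3, a core subunit of the matrix arm, was at 43.2 CPM in CTL and 47.8 with doxycycline, and 36.7 in gRNA2 and 46.8 with doxycycline. It was low in gRNA2 alone, and its ratio of gRNA2+dox to gRNA2, 0.35 (0.22 to 0.48), was the largest of the well-covered members. NDUFS7, near the coenzyme Q site, was at 29.6, 32.8, 31.5 and 31.6 CPM, and NDUFS8, which carries iron-sulphur clusters, at 101, 108, 103 and 104 CPM. Of the core subunits described, NDUFS8 varied least, with 0.10 between its highest and lowest library on the log2 scale.

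Among the 30 accessory subunits, NDUFB5, NDUFA1 and NDUFB3 had the lowest ratios of gRNA2+dox to CTL+dox. NDUFA1, a small membrane-arm subunit needed for assembly, was at 33.9 CPM in CTL and 43.2 with doxycycline, and 29.0 in gRNA2 and 30.1 with doxycycline, with a ratio of -0.52 (-0.67 to -0.38). NDUFB3, another small membrane-arm subunit, was at 16.2, 22.2, 15.8 and 15.7 CPM, with -0.50 (-0.70 to -0.30). Both were highest in CTL+dox. The other 3 libraries were close together for NDUFB3, whereas gRNA2 was below CTL for NDUFA1 (-0.22, -0.37 to -0.07). NDUFB5 was different, at 21.9, 22.6, 18.6 and 15.7 CPM, with both gRNA2-pool libraries below both CTL libraries and the knockout lowest. Its ratio was -0.53 (-0.73 to -0.33) against CTL+dox and -0.25 (-0.45 to -0.05) against gRNA2, the lowest of the well-covered members in each of these comparisons.

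A few accessory subunits went against the common direction. NDUFA10 was at 36.4 CPM in CTL and 33.6 with doxycycline, and 37.3 in gRNA2 and 32.0 with doxycycline, so both doxycycline libraries were below both untreated ones. Its ratios were -0.12 (-0.27 to 0.03) in control cells, the lowest there, and -0.22 (-0.36 to -0.08) in gRNA2 cells. NDUFA7 was at 18.9, 18.6, 21.2 and 19.0 CPM, high in gRNA2 only, with -0.16 (-0.35 to 0.03) within gRNA2 cells. NDUFB10 was at 58.5, 55.9, 61.8 and 61.2 CPM, and NDUFV3, a small subunit of the NADH-binding tip, at 22.8, 22.0, 24.8 and 24.3 CPM. Among members with at least 100 reads in each library, these last genes had the highest ratios of gRNA2+dox to CTL+dox, of 0.13 (0.02 to 0.24) and 0.14 (-0.03 to 0.32), and only the former interval leaves out 0.

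The other accessory subunits singled out by their ranks were NDUFA2, NDUFA9 and NDUFA11. NDUFA2, which has a thioredoxin-like fold, was at 24.4 CPM in CTL and 27.9 with doxycycline, and 18.0 in gRNA2 and 22.2 with doxycycline, low in gRNA2, with a ratio of gRNA2 to CTL of -0.44 (-0.63 to -0.26). NDUFA9, near the coenzyme Q site, was at 27.3, 34.4, 25.6 and 32.0 CPM, so both doxycycline libraries were above both untreated ones. Its doxycycline ratios were 0.33 (0.17 to 0.49) in control cells and 0.32 (0.17 to 0.48) in gRNA2 cells. NDUFA11, a membrane-arm subunit, was at 53.7, 65.6, 64.0 and 64.7 CPM, low in CTL alone, with a ratio of gRNA2 to CTL of 0.25 (0.14 to 0.36).

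Complex II, succinate dehydrogenase, is the only complex with no mitochondrially coded subunit, and all 4 genes were highest in CTL+dox and lowest in gRNA2. SDHA, the flavoprotein that oxidises succinate, was at 367 CPM in CTL and 388 with doxycycline, and 339 in gRNA2 and 356 with doxycycline. SDHB, the iron-sulphur subunit, was at 53.0, 58.4, 51.5 and 56.8 CPM. Between those extremes, SDHA was lower in the knockout than in CTL, and SDHB was higher. The membrane anchors SDHC and SDHD followed the order of SDHB, at 69.0, 81.5, 64.2 and 72.2 CPM and at 68.9, 81.7, 67.7 and 72.2 CPM.

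For SDHA, with 7427 to 8935 reads in a library, the 4 ratios were 0.08 (0.04 to 0.13) for CTL+dox against CTL, 0.07 (0.03 to 0.11) for gRNA2+dox against gRNA2, -0.12 (-0.17 to -0.08) for gRNA2+dox against CTL+dox and -0.11 (-0.16 to -0.07) for gRNA2 against CTL. All 4 intervals leave out 0, but the differences were within that limit. SDHA has near-identical pseudogene copies, so its level is uncertain. SDHC and SDHD lay above CTL in CTL+dox by 0.24 each (0.14 to 0.34 and 0.14 to 0.35), and lower in the knockout than in CTL+dox by a ratio of -0.17 (-0.27 to -0.08) and -0.18 (-0.28 to -0.08). For SDHB the knockout and CTL+dox were not told apart (-0.04, -0.15 to 0.07).

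Complex III moves electrons from coenzyme Q to cytochrome c, and its nuclear genes code for cytochrome c1 (CYC1), the Rieske iron-sulphur protein (UQCRFS1), the large core proteins (UQCRC1 and UQCRC2) and small subunits. All 9 lay above CTL in CTL+dox (median 0.13), 6 above gRNA2 in gRNA2+dox (median 0.10), and 1 above CTL+dox in gRNA2+dox (median -0.15). Between gRNA2 and CTL, 2 were higher in gRNA2 (median -0.06). Its redox subunits CYC1 and UQCRFS1 differed from each other.

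UQCRFS1 was at 193 CPM in CTL and 230 with doxycycline, and 178 in gRNA2 and 174 with doxycycline. CYC1 was at 64.7, 75.0, 66.8 and 75.8 CPM. Doxycycline thus went with a higher level of CYC1 in both pools, by 0.21 (0.11 to 0.32) and 0.18 (0.08 to 0.28), but with a higher level of UQCRFS1 in control cells only, by 0.25 (0.19 to 0.31) against -0.04 (-0.10 to 0.03). In the knockout relative to CTL+dox, UQCRFS1 was lower by -0.40 (-0.46 to -0.34), while CYC1 was level (0.02, -0.08 to 0.12).

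The core proteins differed little between libraries. UQCRC1 was at 186, 203, 181 and 199 CPM and UQCRC2 at 60.2, 60.9, 56.2 and 60.3 CPM, both lowest in gRNA2. UQCRQ, a small subunit near the coenzyme Q site, was at 9.34, 9.82, 6.65 and 8.38 CPM on 175 to 221 reads, and its low level in gRNA2 gave it the lowest ratio to CTL, -0.49 (-0.80 to -0.19). That value depends on the count column used: from the summed stranded columns it was -0.18. The cause of that difference was not tested.

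**Figure D3:**
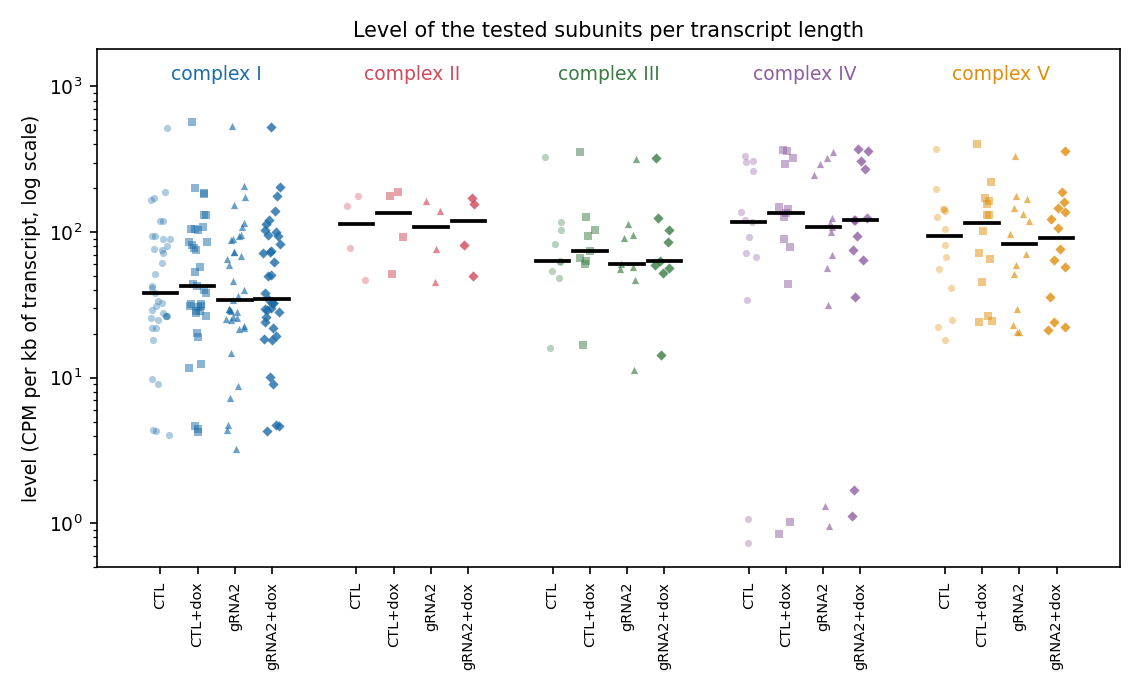
Level of the 77 subunits in CPM per kb of transcript (log axis) by complex and library, with 1 marker shape for each library and black bars for medians. In each complex the bar is highest in CTL+dox, and the genes within a complex spread over a far wider range than the libraries do.

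Complex IV, cytochrome c oxidase, has several subunits with tissue versions, and these cells used the common ones. COX4I1 was at 231 CPM in CTL and 245 with doxycycline, and 224 in gRNA2 and 236 with doxycycline, whereas COX4I2, known from lung, had no read. COX6A1 was at 177, 194, 191 and 193 CPM, whereas COX6A2, the heart and muscle version, had 0 to 2 reads. COX7A2 was at 54.3, 62.5, 50.3 and 57.8 CPM, whereas COX7A1, also a heart and muscle version, had 0 to 2 reads. The same held for COX8A, at 152, 182, 159 and 185 CPM, against 0 to 2 reads for COX8C, a testis version.

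COX6B1, which sits at the cytochrome c side, was at 129 CPM in CTL and 143 with doxycycline, and 120 in gRNA2 and 132 with doxycycline. Its testis version COX6B2 was at 1.68, 1.60, 2.05 and 2.66 CPM. On 34 to 58 reads, COX6B2 was above CTL+dox in the knockout by 0.72 (0.11 to 1.37), 1 of the 2 subunits that were higher past the limit there. The other was NDUFA4L2, a hypoxia-responsive relative of NDUFA4, at 0.692, 0.800, 0.911 and 1.05 CPM on 14 to 24 reads, where the ratio of 0.39 was not told apart from 0 (-0.56 to 1.37). NDUFA4, which was first assigned to complex I and is now known as a complex IV subunit, was at 69.2, 90.2, 64.6 and 73.4 CPM, highest in CTL+dox by 0.38 (0.28 to 0.48) over CTL.

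Over the 13 complex IV genes compared, 12 lay above CTL in CTL+dox (median 0.20) and 11 above gRNA2 in gRNA2+dox (median 0.14). In gRNA2+dox against CTL+dox, 3 were higher (median -0.12), and in gRNA2 against CTL, 5 (median -0.05). COX7B, a small subunit needed for assembly, was the extreme case, at 59.3 CPM in CTL and 81.3 with doxycycline, and 64.2 in gRNA2 and 60.8 with doxycycline. Its level stood out in CTL+dox alone, by 0.46 (0.35 to 0.56) over CTL and with a ratio of knockout to CTL+dox of -0.42 (-0.52 to -0.32). Its testis version COX7B2 had 0 to 2 reads. COX8A was again different, equal in the knockout and CTL+dox (0.02, -0.04 to 0.08) and above the untreated library in each pool, by 0.26 (0.20 to 0.33) and 0.22 (0.16 to 0.28).

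COX7A2L, a related protein that joins complexes III and IV into supercomplexes, was at 92.3 CPM in CTL and 108 with doxycycline, and 89.8 in gRNA2 and 95.5 with doxycycline. Its order was that of the subunits, with a ratio of knockout to CTL+dox of -0.18 (-0.27 to -0.10).

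Complex V, ATP synthase, was lower throughout in the knockout than in the doxycycline-treated control. All 14 genes compared were lower in gRNA2+dox than in CTL+dox (median -0.17, 0.890-fold). Only 2 of them were past the limit, a share near the 15.0% of all genes. Of the 14, 13 lay above CTL in CTL+dox (median 0.17), 11 above gRNA2 in gRNA2+dox (median 0.12) and 4 above CTL in gRNA2 (median -0.13). The catalytic beta subunit ATP5B was at 318, 347, 286 and 306 CPM and the alpha subunit ATP5A1 at 179, 202, 153 and 172 CPM, in the order CTL, CTL+dox, gRNA2, gRNA2+dox. Both were highest in CTL+dox and lowest in gRNA2, and gRNA2 was below CTL by -0.15 (-0.20 to -0.11) and -0.23 (-0.30 to -0.17). ATP5D, the delta subunit of the central stalk, had the same order at 27.5, 30.7, 19.8 and 24.0 CPM, with gRNA2 below CTL by -0.48 (-0.65 to -0.30).

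The membrane ring that turns as protons pass is built of subunit c, for which ATP5G1, ATP5G2 and ATP5G3 code the same mature protein behind different import signals. ATP5G3 was the main source, at 68.8 CPM in CTL and 85.3 with doxycycline, and 59.3 in gRNA2 and 64.4 with doxycycline. ATP5G2 was at 21.4, 22.8, 22.0 and 20.4 CPM, and ATP5G1 at 9.14, 13.3, 10.4 and 12.1 CPM. Per kb of transcript in CTL these levels were 81.7 for ATP5G3, 22.4 for ATP5G2 and 18.2 for ATP5G1, so their order was alike on both scales. ATP5G1 was low in CTL and had the largest ratio of CTL+dox to CTL of the well-covered members, 0.54 (0.28 to 0.82), on 185 to 300 reads. ATP5G3 was lower in the knockout than in CTL+dox by -0.40 (-0.50 to -0.30).

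ATP5J, the coupling factor of the peripheral stalk, did not follow the common order. It was at 84.7 CPM in CTL and 100 with doxycycline, and 105 in gRNA2 and 94.8 with doxycycline, lowest in CTL and highest in gRNA2. Its ratio of gRNA2 to CTL, 0.30 (0.22 to 0.39), was the largest of the well-covered members, and doxycycline went with a higher level in control cells (0.25, 0.15 to 0.34) and a lower one in gRNA2 cells (-0.14, -0.22 to -0.06). Its RefSeq span overlaps that of GABPA, and the counts were not split by strand. GABPA itself had doxycycline ratios of 0.07 in control cells and -0.09 in gRNA2 cells. The part of overlapping reads in the ATP5J values was not tested beyond the summed stranded columns, where the ratio of gRNA2 to CTL was 0.27.

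The ratios with doxycycline in the separate pools can be set side by side, since they share no library. In gRNA2 cells doxycycline also induced the TCOF1 guide, so drug and knockout cannot be told apart there. With 1 library for each condition, neither ratio can be told apart from a difference between cultures. Of the 77 subunits, 55 were higher with doxycycline in both pools (27.9% of all genes), 16 in control cells only (22.3%), 2 in gRNA2 cells only (21.6%) and 4 lower in both (28.2%). The ratio was larger in control cells for 56 of the 77 (49.2% of all genes), and the difference, gRNA2 cells minus control cells, had a median of -0.09 on the log2 scale against 0.00 for all genes. By complex the median difference was -0.10 for I, -0.04 for II, -0.09 for III, -0.05 for IV and -0.07 for V. Across the 77 subunits the ratios of the pools were weakly related (Pearson's r 0.16, Spearman's rho 0.21), against 0.02 and 0.11 over all 15204 genes. With at least 100 reads in each library, the values were 0.24 and 0.25 over 73 subunits and 0.22 and 0.24 over 10532 genes. Subunits are not independent samples, and all points of a pool share its libraries. Thus the direction was common to both pools, but the size of a subunit's ratio in 1 pool said little about its size in the other. NDUFB11, a small complex I subunit, was at 98.1, 109, 90.7 and 82.5 CPM, and ATP5L, subunit g of ATP synthase, at 156, 169, 158 and 149 CPM, in the order CTL, CTL+dox, gRNA2, gRNA2+dox. With ATP5J they were picked after their values were seen, as the subunits with a higher level in 1 pool, a lower level in the other and both intervals clear of 0. These 3 are 3.90% of the 77, against 3.35% of all genes, and 4.11% of the 73 well-covered subunits, against 4.40% of genes with as many reads, so their number was near the background. NDUFB11 had 0.15 (0.07 to 0.24) in control cells and -0.14 (-0.22 to -0.05) in gRNA2 cells, and ATP5L had 0.11 (0.04 to 0.18) and -0.09 (-0.16 to -0.03).

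**Figure D4:**
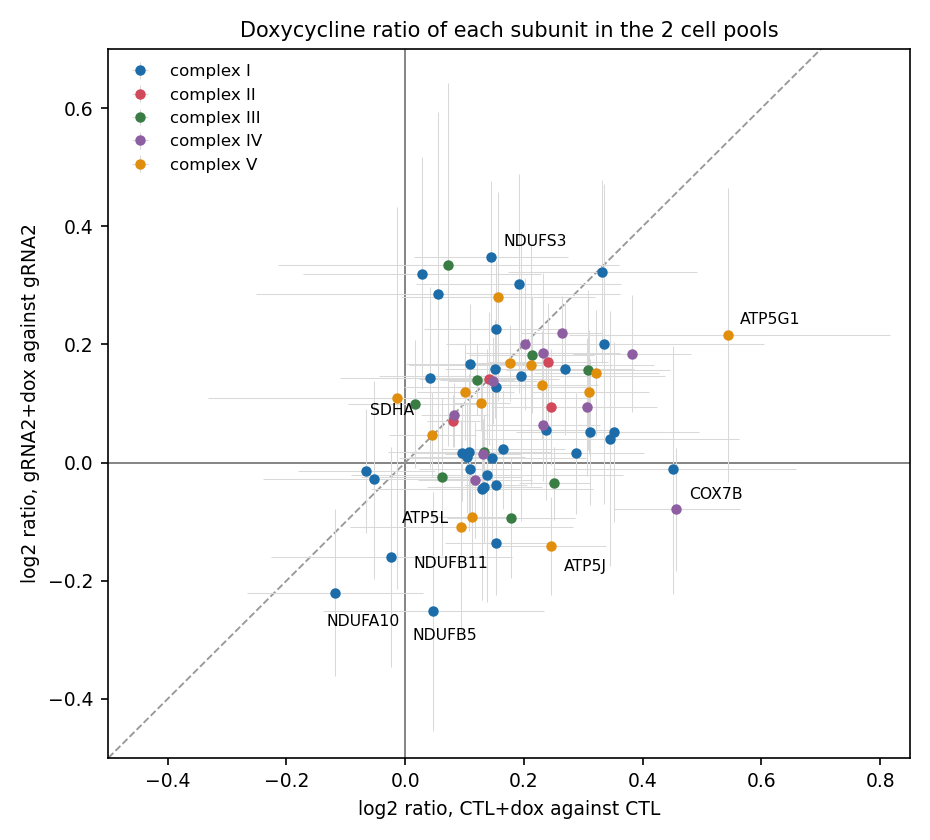
Log2 ratio with doxycycline in control cells (x axis) and in gRNA2 cells (y axis) for the 73 well-covered subunits, coloured by complex, with grey bars for 95% counting intervals and a dashed line where the ratios are equal. Most points lie right of 0, more of them below the dashed line than above it, and ATP5J, ATP5L and NDUFB11 lie in the lower right.

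The spread of ratios over the 73 well-covered subunits was wider than counting error. The standard deviation over subunits was 0.12 to 0.15 on the log2 scale in the 4 comparisons, against a median counting error of 0.05 to 0.06. That spread is over genes and does not stand in for replicate error, which was not measured.

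Levels within the chain spanned a wide range. In CTL, per kb of transcript, NDUFS5 of complex I was highest at 515 CPM per kb, followed by ATP5B at 371, COX6A1 at 330, UQCRH at 326, COX8A at 307 and COX4I1 at 303. The lowest subunits compared were NDUFA4L2 at 0.734 and COX6B2 at 1.07, then NDUFA5 at 4.04 and NDUFC2 at 4.32. The median was 117.6 for complex IV, 114 for II, 93.6 for V, 63.2 for III and 38.3 for I. The complexes overlap widely in these levels. Lengths are the median over each gene's protein-coding transcripts, such as 856 nt for ATP5B and 3511.5 nt for NDUFA5. The median over the subunits was 651 nt by this length and 783.5 nt by canonical transcripts. Levels per kb, and the order of genes and complexes by them, therefore depend on the length used, and canonical lengths were not used for them.

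Low values need care where loci overlap. A read that fits more than 1 gene or place was left out of these counts, which affects genes with a near-identical copy or a readthrough partner. ATP5E, the epsilon subunit of ATP synthase, had 4, 4, 4 and 1 reads and shares its locus with a readthrough transcript listed at 0, and NDUFC2, at 48 to 59 reads, shares its locus with NDUFC2-KCTD14, also at 0 reads. ATP5J2 and its readthrough ATP5J2-PTCD1 are alike in this, with 153 to 174 and 0 reads. UQCRHL, a copy of UQCRH, had 78 to 94 reads beside 3539 to 4487 for UQCRH. In all, 31 of the 77 subunits overlap the span of another RefSeq gene. Among them is NDUFA2, which overlaps TMCO6 (104 to 131 reads). These levels are therefore uncertain. The same counting rule was used in each library, but a ratio can still depend on that rule, as the UQCRQ ratio of gRNA2 to CTL did.

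The 10 members that are not subunits added little. ATP5SL, whose product takes part in complex I assembly, was at 47.5, 46.7, 47.2 and 48.6 CPM and did not show the subunits' order. Its ratio of 0.06 (-0.07 to 0.18) was the third highest of gRNA2+dox to CTL+dox among the well-covered members. ATP5S was at 1.14 to 1.73 CPM on 28 to 37 reads. The antisense transcripts NDUFV2-AS1 and NDUFB2-AS1 had 52 to 67 and 11 to 19 reads, NDUFA6-AS1 had 4 to 8, and ATP5L2, ATP5J2-PTCD1 and NDUFC2-KCTD14 had 0 in every library.

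Other genes that serve the chain were next compared. Of 45 listed assembly factors, which build the complexes without being part of them, 42 were compared. They had medians of 0.12 for CTL+dox against CTL (33 higher), 0.09 for gRNA2+dox against gRNA2 (30 higher), -0.13 for gRNA2+dox against CTL+dox (14 higher) and -0.05 for gRNA2 against CTL (16 higher). BCS1L, which inserts the Rieske protein, was at 4.89 CPM in CTL and 6.22 with doxycycline, and 3.91 in gRNA2 and 3.66 with doxycycline. On 80 to 140 reads, it was highest in CTL+dox and lowest in the knockout, like UQCRFS1. Its ratio of knockout to CTL+dox, -0.76 (-1.18 to -0.36), was the lowest of the 42. The knockout and gRNA2 were not told apart (-0.09, -0.53 to 0.34). LYRM7, another listed assembly factor, was at 2.57, 3.02, 2.66 and 3.11 CPM on 52 to 70 reads, highest in the knockout. Past the limit, 10 of the 42 assembly factors were lower and 1 higher for gRNA2+dox against CTL+dox (15.0% and 12.8% of all genes). The numbers were 0 and 2 for CTL+dox against CTL (11.0% and 9.05%), 0 and 4 for gRNA2+dox against gRNA2 (11.4% and 9.28%), and 6 and 0 for gRNA2 against CTL (11.9% and 8.95%).

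Cytochrome c, coded by CYCS, was at 189, 215, 180 and 202 CPM, in the subunits' order. With it, the 15 genes for electron carriers and coenzyme Q synthesis had medians of 0.11, 0.04, -0.12 and -0.07 in the order CTL+dox against CTL, gRNA2+dox against gRNA2, gRNA2+dox against CTL+dox and gRNA2 against CTL. The 13 genes of the tricarboxylic acid cycle, which supplies NADH and succinate, had 0.06, -0.02, -0.14 and 0.00. The 9 regulators compared had -0.02, -0.06, 0.06 and 0.12, with no common direction. Among them ESRRA, a nuclear receptor that acts on respiratory genes, was at 91.2, 83.8, 61.0 and 69.1 CPM, and TFAM, the packaging factor of mitochondrial DNA, at 34.2, 35.2, 26.0 and 29.7 CPM. Both were lower in the gRNA2 pool than in the CTL pool with and without doxycycline. PPRC1 and MYC went the other way, with 0.26 (0.14 to 0.37) and 0.22 (0.09 to 0.34) for gRNA2+dox against CTL+dox. Without doxycycline they had 0.16 (0.05 to 0.27) and 0.17 (0.05 to 0.30). Of the 9 regulators, 5 were higher for gRNA2+dox against CTL+dox and 6 for gRNA2 against CTL. PPARGC1B had the highest ratio of gRNA2 to CTL of the 9, 0.76 (0.35 to 1.20), on 155 and 70 reads. For gRNA2+dox against CTL+dox its ratio was not told apart from 0 (0.26, -0.13 to 0.65). PPARGC1A, the coactivator PGC-1alpha, had 1 read in each library.

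Ribosomal protein genes had medians of the same sign as the subunits. The 77 mitochondrial ribosomal protein genes had medians of 0.13, 0.09, -0.08 and -0.02 in that order of comparisons, and the 80 cytosolic ribosomal protein genes compared had 0.11, 0.02, -0.16 and -0.08. For the difference of doxycycline ratios between pools, gRNA2 minus control cells, the medians were -0.02 and -0.08, against -0.09 for the subunits. Summed reads differed from these medians in part. For mitochondrial ribosomal proteins in gRNA2+dox against CTL+dox, the log2 ratio of the sums was -0.01 (-0.03 to 0.00), and 27 of the 77 were higher. The subunits' sum had -0.15 (-0.16 to -0.14) there. For mitochondrial ribosomal proteins in gRNA2 against CTL the sums gave 0.00 (-0.01 to 0.02). For cytosolic ones in gRNA2+dox against gRNA2 they gave -0.01 (-0.01 to 0.00). The direction of the medians was therefore not particular to the respiratory chain.

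Transcript length moved with these ratios. The subunits' transcripts are short, with a median of 651 nt against 1911 nt for all genes compared, and 56 of the 77 lie in the shortest 20% of genes. Genes in the shortest 10% had medians of 0.05 for CTL+dox against CTL, 0.02 for gRNA2+dox against gRNA2, -0.05 for gRNA2+dox against CTL+dox and -0.01 for gRNA2 against CTL, and those in the longest 10% -0.06, -0.01, 0.09 and 0.05. When length was taken from the Ensembl canonical transcript instead, the shortest 10% had larger values of 0.10, 0.04, -0.09 and -0.03. Centring each ratio on genes of like length and GC content left subunit medians of 0.12, 0.09, -0.10 and -0.05 by the former length, and 0.10, 0.07, -0.08 and -0.05 by the canonical one. The direction of each median was kept and its size was smaller, and the part of length in the subunits' values was not tested further.

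**Figure D5:**
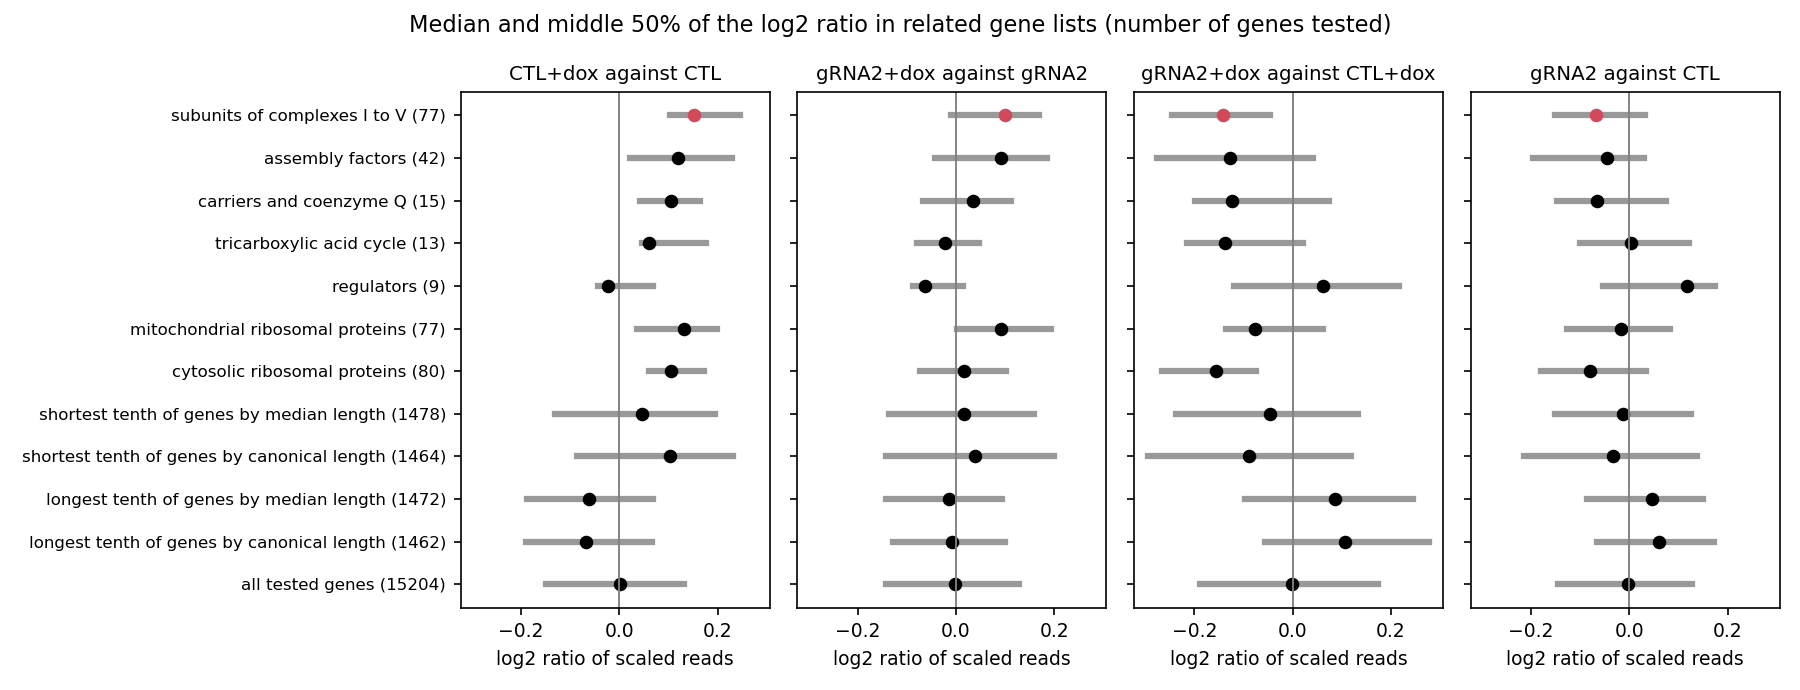
Median log2 ratio (dots) and middle 50% (bars) of the subunits, related gene lists, genes of the shortest and longest 10% by 2 length definitions, and all genes compared, by comparison (panels). The subunits (red) lie with the ribosomal protein lists and on the same side as short genes, and long genes lie on the other side.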

How the data were processed

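RNA-seq was measured in 4 MDA-MB-468 mammosphere libraries, 1 for each condition. The authors trimmed reads with fastp, aligned and counted them with STAR (hg38 in the submitters' processing notes), and deposited raw counts per gene. The STAR version and gene annotation are not given in the sources used here. Levels are CPM, counts per 1000000 reads on genes after scaling. The unstranded column was used, so antisense overlaps cannot be told apart. Reads on no gene, on several genes or at several positions were left out, and 79.7% to 81.0% of reads remained. Counts were scaled by TMM (edgeR 4.0.16, R 4.3.3). A gene was compared if any library had 10 counts or more (15204 of 26475).

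Log2 ratios took a prior count of 0.5. Each ratio has an exact 95% interval (Clopper-Pearson) from its reads in both libraries, and sums have Poisson intervals. They cover counting error only. A ratio over 25% higher or 20% lower, the same fold, was counted. The study's cutoffs were applied with the 1% bound of the counting distribution, since GFOLD was not run. Python 3.11.15 with numpy 2.4.6, scipy 1.17.1 and pandas 2.3.3 was used, and the code was checked on simulated data. Lengths and GC content came from GENCODE 44, and symbols, overlaps and promoters from RefSeq on GRCh38.p14, which matched 92 of the 93 members. Other settings tried were size factors of DESeq2 1.42.0, scaling to total counts, other filters and prior counts, thinning to 1 depth, stranded columns and centring by length and GC content. Centring by canonical transcripts and the limit of 100 reads were chosen after seeing the data.

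An item that the rule names is counted in the totals, but its values are not reported here. Values in every library are given for the core subunits of complex I, complex II, the main subunits of complex III, the paralogue groups of complex IV, subunits alpha, beta and c of ATP synthase, and the 3 members with the highest and the 3 with the lowest ratio in each comparison among those with at least 100 reads in each library. Members and lists were chosen with earlier results of these data known.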

Additional observations from a re-analysis of the deposited data

Results flagged for a closer look

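In 3 subunits the doxycycline ratio had opposite directions in the control cells and the gRNA2 cells, with both counting intervals clear of 0. They are 3.90% of the 77 subunits, and 3.35% of all genes met the same rule. On the log2 scale, the ratio in gRNA2 cells minus that in control cells was -0.39 for ATP5J, -0.29 for NDUFB11 and -0.21 for ATP5L. With 1 library for each condition the difference was not tested, and ATP5J and NDUFB11 overlap the spans of GABPA and RBM10.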

How the results depend on the processing

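The median log2 ratio of the subunits kept its direction in all 4 comparisons under every alternative run. It ranged from 0.10 to 0.16 for CTL+dox against CTL, from 0.07 to 0.10 for gRNA2+dox against gRNA2, from -0.17 to -0.08 for gRNA2+dox against CTL+dox and from -0.09 to -0.04 for gRNA2 against CTL. Small counts past the 25% limit were less stable. For gRNA2+dox against gRNA2, the 6 higher subunits became 3 with total counts only, with centring by either length and with at least 100 reads, and 1 was lower with no filter. For gRNA2+dox against CTL+dox, the 11 lower became 7 with canonical centring, and the 2 higher became 1 with at least 50 counts, a prior count of 5 or thinning and 0 with at least 100 reads. Higher by any size there were 11, which became 6 with total counts only, 7 with thinning and 19 with canonical centring. For CTL+dox against CTL, the 10 higher became 5 with centring and 4 with canonical centring. For gRNA2 against CTL, the 1 higher became 2 with no filter, thinning or canonical centring and 0 with at least 50 counts, a prior count of 5 or at least 100 reads. Highest in CTL was 1 subunit, which became 2 with total counts only or no filter, 7 with centring and 5 with canonical centring. Highest in gRNA2 were 6, which became 14 with canonical centring. Highest in gRNA2+dox were 7, which became 3 with total counts only or thinning and 4 with at least 100 reads. With canonical centring, fewer than the original 63 of the 77 subunits were therefore highest in CTL+dox. The causes were not tested, except that a higher limit on reads compares fewer genes. Of 2725 recomputed values 47 moved beyond their interval or 1.5 times their count. No paired analysis was possible because there was 1 library for each condition, and leaving out a replicate was not run for the same reason. Differences between cultures were not measured.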
